A study of Arabidopsis thaliana with 9 samples.

Results

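AT2G26520 and AR781 (AT2G26530) are neighbouring genes on chromosome 2 of Arabidopsis thaliana that point towards each other. The locus was selected on the number and strength of LEAFY (LFY) binding peaks in the list itself, and its members are all peak summits from chr2:11270000-11295000, a region of 25 kb. There were 6 such summits of 1177 on the nuclear chromosomes (0.510%), named S1 to S6 here in order along the chromosome. Number, strength and spacing are therefore given as a description, with no test. The sequence under the summits was not used to choose them.

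LFY was mapped by chromatin immunoprecipitation and sequencing (ChIP-seq) in callus, the dividing tissue that root explants form on callus inducing medium (CIM). All 9 samples came from Landsberg erecta plants with no further mutation that carry 35S:LFY-GR, and roots of seedlings aged 3 weeks spent 5 days on CIM. The groups were 3 inputs without antibody or treatment, 3 anti-LFY ChIP samples after mock treatment and 3 anti-LFY ChIP samples after 5 µM dexamethasone (dex). By the sample labels, mock or dex was present for 1 h at the end of the culture, while the text on the series gives 24 h. The 35S promoter is active in most plant cells, so LFY-GR is made in tissue where LFY itself is not normally at work, and each ChIP replicate joined 4 immunoprecipitations. The peaks analysed compare the pooled dex with the pooled mock libraries, so no value below has an error between replicates.

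LFY is the plant transcription factor that switches meristems to floral fate. It can bind DNA as a dimer, and its full recognition site is close to a palindrome with the centre CCANTGG. In LFY-GR it is joined to the steroid-binding part of the glucocorticoid receptor (GR), which holds it in the cytosol until dex is present. A summit is the base of a peak where most extended reads overlap, and in ChIP-seq it lies near the bound site.

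The sequences below show the strongest summit of the region (S6) and the pair between AT2G26515 and AT2G26520 (S2 and S3), which lie closest together. All are plus-strand TAIR10 reference sequence from RefSeq and all are intergenic. Capitals mark matches to CCANTGG with at most 1 mismatch at its 6 fixed bases and with the centre within 150 bp of the summit.
S6, chr2:11284799-11284999, summit at base 101: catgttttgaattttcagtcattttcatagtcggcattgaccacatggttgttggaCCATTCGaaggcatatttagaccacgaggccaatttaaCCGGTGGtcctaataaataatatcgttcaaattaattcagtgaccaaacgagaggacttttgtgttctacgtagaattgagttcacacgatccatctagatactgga
S2, chr2:11279254-11279419, summit at base 91: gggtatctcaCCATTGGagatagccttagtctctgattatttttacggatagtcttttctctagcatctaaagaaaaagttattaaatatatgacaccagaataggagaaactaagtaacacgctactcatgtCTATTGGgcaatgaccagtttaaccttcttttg
S3, chr2:11279738-11279912, summit at base 88: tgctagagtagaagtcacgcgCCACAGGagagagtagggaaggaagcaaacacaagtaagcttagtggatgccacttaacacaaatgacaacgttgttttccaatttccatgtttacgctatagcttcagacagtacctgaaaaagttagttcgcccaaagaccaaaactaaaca
In S6 the summit base is the last capital of CCGGTGG. S2 holds an exact match (CCATTGG) on 1 side of the summit and CTATTGG on the other, and S3 holds CCACAGG alone.

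AT2G26520 (chr2:11279913-11280996, plus strand) is 1084 bp long, has 1 annotated transcript and encodes an uncharacterized protein of 145 residues. AR781 (chr2:11282663-11284272, minus strand) is 1610 bp long, has 2 transcripts and encodes a protein of up to 317 residues with a domain of unknown function, DUF1645. The ends of these genes are 1666 bp apart, and no summit lay in this gap. To the left come AT2G26515, which encodes an uncharacterized peptide of 21 residues, and PDE135 (AT2G26510), a member of the xanthine/uracil permease family. To the right comes HEMD (AT2G26540), which encodes uroporphyrinogen-III synthase, an enzyme of tetrapyrrole synthesis.

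The 6 summits spanned 7294 bp and fell into a group of 4 around AT2G26520 and its left neighbours and a pair at the start of AR781. S1 lay at 11277605, S2 at 11279344, S3 at 11279825, S4 at 11280944, S5 at 11284207 and S6 at 11284899. The distances between neighbours were 1739, 481, 1119, 3263 and 692 bp. The gap of 3263 bp holds most of AR781 and the space between the gene ends, and it alone exceeded 3 kb. Of 1172 gaps between neighbouring summits on the 5 nuclear chromosomes, 11 were 481 bp or shorter, the shortest was 349 bp and the median was 40337 bp. The called intervals did not touch: 229 bp separated those of S2 and S3, and 109 bp those of S5 and S6.

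Beyond the region, the next summit on the left was 46742 bp from S1, with a fold of 8.86, and the next on the right was 78577 bp from S6, with a fold of 4.66. Peaks of the list are numbered along the genome before the authors filtered them on q-value. The members carry the numbers 751 to 756, so no called peak between them was dropped by that filter. A single number is missing between S1 and its left neighbour, and another between S6 and its right neighbour.

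**Figure D1:**
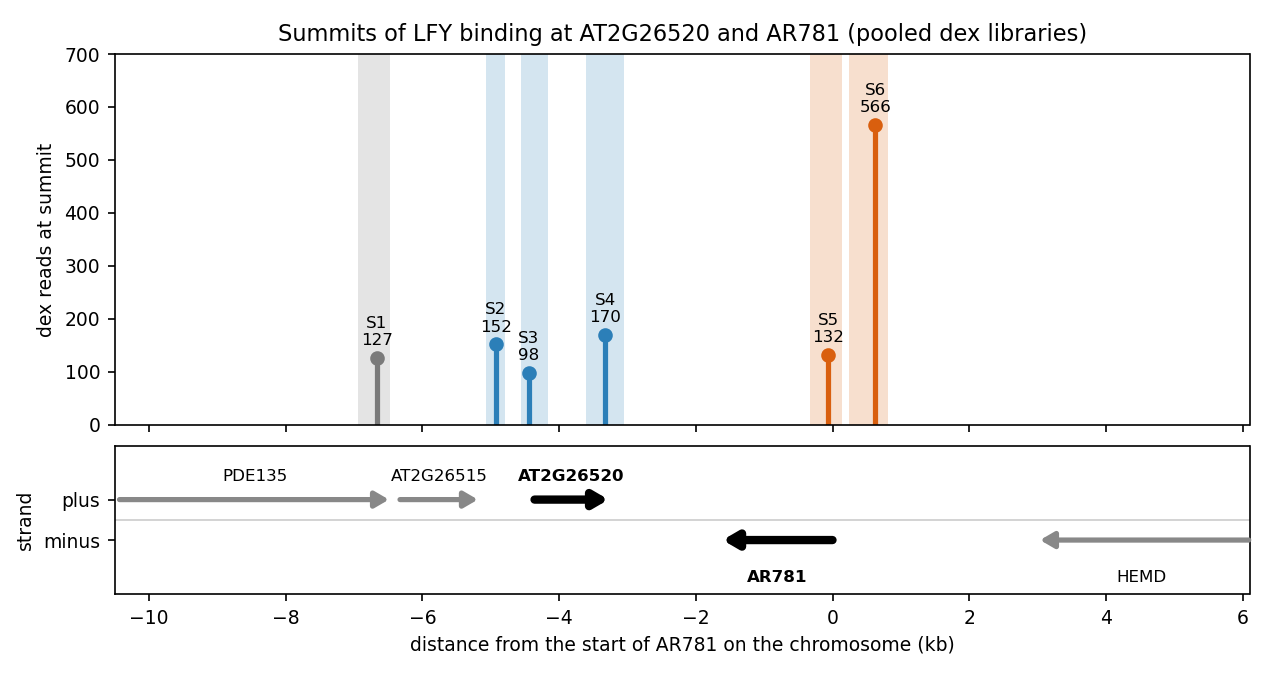
Position and dex reads of the 6 summits (top; vertical lines with points) and the genes around them (bottom; arrows point in the direction of transcription). The x axis is the distance in kb from the start of AR781, shaded bands are the called intervals, and colours mark summits in the body or 3 kb upstream of AR781 (orange), of AT2G26520 (blue) and S1 (grey), which lies in PDE135 and also within 3 kb of AT2G26520; S6 stands at 566 reads and the others between 98 and 170.

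The strongest summit of the region was S6. The deposited fold is the dex pileup plus 1 over the mock background plus 1, and S6 had a fold of 18.6, the highest of all 1177 nuclear summits. Its −log10 q-value of 387 was rank 3 and its 566 dex reads were rank 4. The mock libraries had 23 reads at the same place, which after scaling to equal depth gives a dex over mock ratio of 19.4 (95% exact counting interval 12.8 to 30.8). The next highest folds were 18.5 near WRKY48 and 18.3 near AT1G68360, with 679 and 672 dex reads. Given the width of the interval, the order of S6 and these summits is not resolved. The interval of the S6 peak was 575 bp wide (chr2:11284517-11285091).

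The other 5 summits were weaker. Their ratios are to the background that MACS2 used, which at these 5 was not the reads counted at the summit. At S1 and S5 this background was read as a mock density over 1 kb. S4 had 170 dex reads and a fold of 7.11 (rank 131), and after scaling its reads were 7.45 times the genome-wide floor of the background (6.37 to 8.66). S2 had 152 dex reads and a fold of 6.36 (rank 179), 6.66 times the floor (5.65 to 7.81). S5 had 132 dex reads, a fold of 5.31 (rank 287) and a ratio of 5.54 to the mock density over 1 kb (4.33 to 7.09). In these 3 the fold exceeded the upper quartile of all nuclear summits, 5.28, as it did in S6. S1 had 127 dex reads, a fold of 4.60 (rank 443) and a ratio of 4.77 to the density over 1 kb (3.74 to 6.08). S3 had the fewest dex reads, 98, and the lowest fold, 4.12 (rank 562), 4.30 times the floor (3.49 to 5.24). Even S3 was above the nuclear median fold of 4.04, so 6 of 6 folds were above it.

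The background under these ratios differed between summits. At S6 it was the 23 mock reads counted at the summit. At S1 and S5 it was set by the mock reads in the surrounding 1 kb, 152 and 136 reads, which correspond to 21.0 and 18.8 reads per summit window. MACS2 uses the largest estimate, so the mock reads at the summits of S1 and S5 did not exceed these values. The ratios of S1 and S5 are therefore a minimum over the mock reads at the summit. At S2, S3 and S4 it was the genome-wide floor of 18.0 reads, which means that the mock libraries had at most 17 reads at the summit itself. For these 3 the ratio is a minimum over the mock reads at the summit, with no upper end, and its interval covers the counting error of the dex reads alone. The floor set the background at 31.9% of nuclear summits.

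Dex reads of the pooled libraries can be set side by side at all 6 summits. S6 had 3.33 times the dex reads of S4, the next highest, and 45.5% of the 1245 dex reads at the 6 summits. Among the 3 summits with the floor as background, the intervals of S2 and S4 lay above that of S3 and overlapped each other. The intervals of S1 and S5, both read as over a 1 kb background, overlapped each other. The interval of S6 lay above them, but it is over mock reads counted at the summit, an unlike background. The order of dex over mock at the summit itself is not resolved for any pair, since the mock reads there are known at S6 alone.

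**Figure D2:**
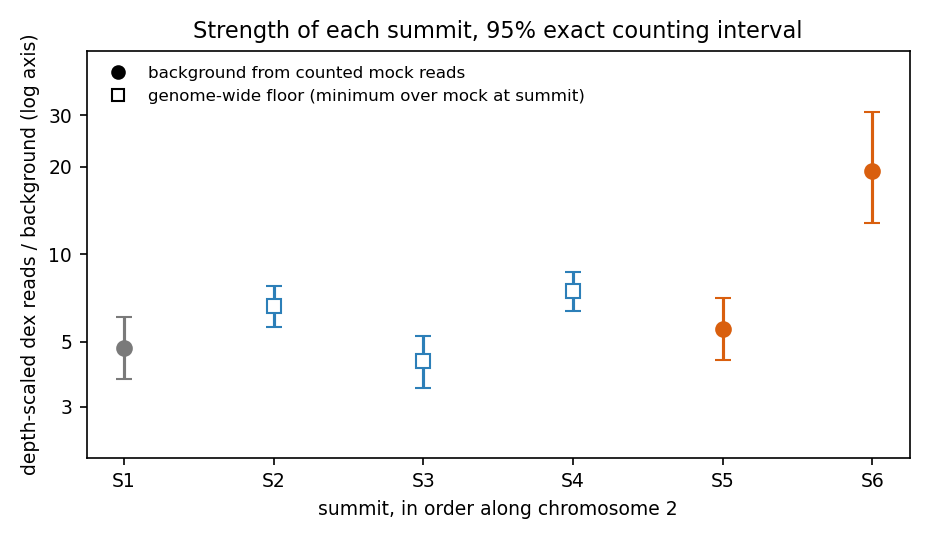
Dex reads at equal depth over the background used, for the 6 summits in chromosome order (y axis, log scale; bars are 95% exact counting intervals). Filled points have a background of counted mock reads, at the summit for S6 and, as read here, over 1 kb for S1 and S5. Open squares are over the genome-wide floor. The open squares and the points of S1 and S5 are a minimum over the mock reads at the summit. Heights cannot be ranked between different backgrounds. S6 is at 19.4, and the other 5 values lie between 4.30 and 7.45.

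**Figure D3:**
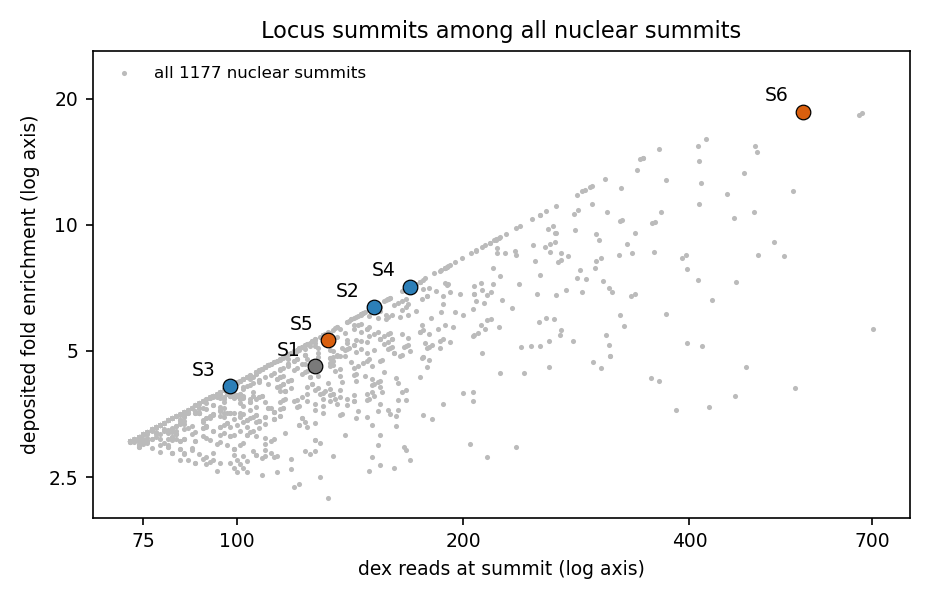
Dex reads at the summit (x axis, log scale) against the deposited fold (y axis, log scale) for all 1177 nuclear summits (grey), with the region's summits in colour. S6 lies at the top edge with a fold of 18.6, and the other 5 lie between 4.12 and 7.11; the upper diagonal edge is formed by summits whose background is the genome-wide floor.

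Each summit was placed relative to the genes. S6 was intergenic, 627 bp upstream of the start of AR781 and 2409 bp past the end of HEMD. S5 lay 65 bp inside AR781, in the 5′UTR of both its transcripts. AR781 therefore had 2 summits in its body or within 3 kb upstream, with 698 dex reads together. Neither S5 nor S6 lay in the body or within 3 kb upstream of another gene of the region, since HEMD is read in the same direction as AR781 and ends, rather than starts, next to S6.

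AT2G26520 had 4 summits in its body or within 3 kb upstream, with 547 dex reads together. S3 lay 88 bp upstream of its start, and the called interval of S3 (chr2:11279709-11280114) runs into the gene. S2 lay 569 bp upstream and 260 bp past the end of AT2G26515. S4 lay in the 3′UTR of AT2G26520, 1031 bp from its start, and 1719 bp past the end of AR781. S1 lay 2308 bp upstream of AT2G26520, but 340 bp upstream of AT2G26515 and in the 3′UTR of all 3 transcripts of PDE135. S1 thus counts for each of these 3 genes, and which of them it could serve cannot be told apart from position. No expression values were analysed here, so none of these assignments says that a gene responds to LFY.

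Genes with this many summits were few. Of 1418 genes with at least 1 summit in the body or within 3 kb upstream, 186 had at least 2, 13 had at least 3 and 4 had 4. The other 3 genes with 4 summits were IAA13, an Aux/IAA repressor of auxin signalling (491 dex reads together), WRKY23, a WRKY transcription factor (622 dex reads), and HB40, a homeodomain-leucine zipper transcription factor (487 dex reads). These were chosen for naming after their values were seen. The 4 summits of AT2G26520 had a median fold of 5.48, against 3.89 at IAA13, 4.30 at WRKY23 and 4.39 at HB40. These folds rest on backgrounds that can differ between summits, so they do not rank the genes by binding. The summits of AT2G26520 spanned 3339 bp, against 3043 to 3259 bp at the other 3.

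The region was also compared with other dense regions, each taken as the 25 kb window around a summit that held most summits. With 6 summits against a mean of 0.247 per 25 kb of nuclear genome, it was rank 3 of 726 regions, a rank shared by 4 of them. More summits were found near AT1G68360, with 8 over 18817 bp and a highest fold of 18.3, and near HB40, with 7 over 16194 bp and a highest fold of 7.98. The 3 regions that also had 6 were near AT3G52470 (over 19245 bp, highest fold 9.91), AT1G28120 (17601 bp, 7.21) and CLL1 (20243 bp, 6.16). The 6 summits at AT2G26520 and AR781 fell within 7294 bp, the shortest span of these 6 regions. Their median fold was 5.84, against 6.69 near AT1G68360 and 3.79 to 5.37 near the other 4. The share of dex reads at the strongest summit was 45.5%, against 36.5% near AT1G68360 and 19.6% to 35.2% near the other 4.

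To ask which LFY sites lie under the summits, the centre CCANTGG was searched within 150 bp of each. An exact match was present at 2 of 6 summits, S1 (centre 49 bp left of the summit) and S2 (77 bp left), against 13.1% of all nuclear summits and 3.74% and 4.33% of windows shifted by 1000 bp to the left and right. With up to 1 mismatch, 6 of 6 had a match, against 73.6% of nuclear summits and 50.3% of the left windows. With 6 summits these counts are a description. S6, the summit with the highest fold in the list, had no exact match.

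Sites were then scored with a matrix of 19 bp, in log2 odds, learned from summits of the 4 other nuclear chromosomes, so that no sequence of chromosome 2 entered it. The matrix was started from 98 exact matches and refined to 612 sites. The median best score within 150 bp was 8.72 at nuclear summits (quartiles 6.58 and 11.3), 4.94 in the left windows and 4.96 in the right windows. The matrix was learned at 954 of these summits, so this difference is partly built in. On chromosome 2, which was left out, the medians were 7.85 at summits and 4.64 in the left windows. As a reference, the summit in the promoter of AP1, a floral identity gene bound by LFY, scored 15.3 with its site 5 bp from the summit. It lies on chromosome 1, whose summits were used to learn the matrix, unlike the summits of this region.

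The best site of each summit is given below as 19 bases of the plus strand, with the central 7 bases in capitals, because these sites separate the summits that scored high from those that scored low.
S6: atttaaCCGGTGGtcctaa
S1: ttgagtCCAGTGGatacaa
S2: tcatgtCTATTGGgcaatg
S4: catgaaCTAGTGGtttata
S5: aaataaACATTGGtttatt
S3: gttcgcCCAAAGAccaaaa
The site of S6 scored 14.4, above 94.1% of nuclear summits, and its centre lay 3 bp from the summit. The site of S1 scored 13.8 (above 91.6%), 49 bp from its summit. Those of S2 and S4 scored 12.8 (86.2%) and 11.7 (77.8%), at 46 and 44 bp. S5 and S3 scored 6.69 (26.2%) and 5.47 (15.3%), at 90 and 71 bp. The median distance of the best site was 23 bp from nuclear summits and 77 bp from the centres of the left windows. Only the site of S6 lay nearer than the nuclear median, and those of S5 and S3 lay about as far as in the left windows. The called interval of S3 also holds a site that scored 8.68, in the 5′UTR of AT2G26520 and 215 bp from the summit, outside the window scored here. Within 150 bp, 4 of 6 best scores lay above the nuclear median. All 6 lay above the median of the left windows, 4.94, which 2 of them passed by less than 2 log2 units. The lower quartile of all nuclear summits, 6.58, also lay above that median, so passing it is common in the list.

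Only the site of S1 has the full CCANTGG. Counted from 1 at the first base of CCANTGG, the substitution was A3G in S6, C2T in S2 and in S4, and C1A in S5. The best site of S3 carried T5A and G7A. S2 and S4 thus share the same change, in the sites CTATTGG and CTAGTGG. In S2 the exact match CCATTGG, printed above, was not the best site, since the matrix also reads the 6 flanking bases on each side. Sites lie at chr2:11284887-11284905 for S6, chr2:11277547-11277565 for S1, chr2:11279381-11279399 for S2, chr2:11280891-11280909 for S4, chr2:11284288-11284306 for S5 and chr2:11279887-11279905 for S3.

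**Figure D4:**
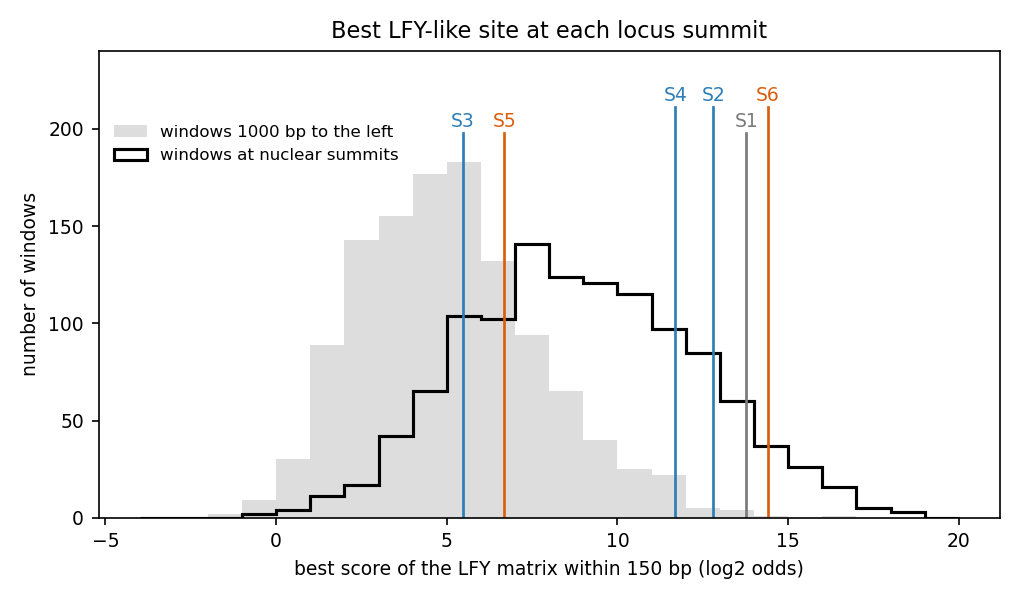
Best matrix score within 150 bp (x axis, log2 odds) for all 1177 nuclear summits (black outline) and for windows shifted 1000 bp to the left (grey); the y axis is the number of windows in bins of 1 log2 unit. Vertical lines mark the region's summits: S6, S1, S2 and S4 score between 11.7 and 14.4. S3 and S5, at 5.47 and 6.69, score above 58.5% and 74.6% of the left windows.

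The matrix was also run over the whole 25 kb. The 4 highest-scoring sites of the region were those of S6, S1, S2 and S4, and all 4 lay inside called peaks, which cover 2766 bp or 11.1% of it. On chromosome 2 as a whole, sites scoring at least 11.7 averaged 1.24 per 25 kb. The highest site outside the peaks scored 11.5, in an intron of HO2, which encodes heme oxygenase 2. The next was in an intron of AT2G26515 with a score of 10.6, at 662 bp from S1. Exact CCANTGG matches numbered 9 in the region, against a mean of 4.15 per 25 kb of chromosome 2, and 7 of these 9 were more than 150 bp from any summit.

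One of these exact matches lay inside AT2G26520. It was CCATTGG in the coding sequence (chr2:11280368-11280374), 546 bp from S3 and between S3 and S4, with no peak over it and a score of 8.86. Another CCATTGG (chr2:11279159-11279165) lay 182 bp from S2 in the intergenic stretch. A further 3 lay in the coding sequence of PDE135, at 1519 to 2681 bp from S1.

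Other short motifs were searched in the same windows on both strands. TGGNCCA was present at S6, 45 bp left of the summit, against 11.1% of nuclear summits, and there it overlaps the match CCATTCG printed above. TTGAC, the core of the W-box bound by WRKY factors, was present at S4 and S6, against 63.5%. TATAAA was present at S1, S4 and S5, against 47.3%. No match was found at any of the 6 for CACGTG, the G-box (12.1% of nuclear summits), ACGCGT (4.33%), GAGAGAGA (6.88%) or AAACCCTA, the telo box (2.89%). The GC content of the windows ranged from 28.2% at S5 to 37.2% at S6, around a nuclear median of 32.9% (quartiles 30.9 and 35.9).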

How the data were processed

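LFY ChIP-seq was analysed from 9 samples in 3 groups of 3. Per the labels and the study's methods, the authors used Trimmomatic for trimming and Bowtie2 for mapping to TAIR10, pooled the libraries of each treatment, and called dex over mock peaks with MACS2, with duplicates removed. The submitters' processing notes give Trimmomatic 0.36, Bowtie2 2.3.1 and MACS2 2.1.1.20160309, and the methods name other versions of Trimmomatic and MACS2. The inputs were not part of the calling. The authors kept peaks with a −log10 q-value of at least 10.

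The deposited list gives each peak a fold (a ratio with 1 added to both sides), the p-value and the q-value as −log10, and a score that restates the q-value and was not used. Fold, p and q are the authors' values throughout. Library depth is not in the list. Dex reads and mock background at each summit were recovered as the pair that gives both the fold and the Poisson p-value as MACS2 computes them. The dex reads are a whole number, and the background is the floor or a whole number of mock reads scaled to the summit window. MACS2 scaled dex reads by 0.788, and its background is the largest of a floor for the whole genome and the mock density over 138 bp, 1 kb or 10 kb. This was possible at 1181 of 1181 peaks. The solver, the motif search and the matrix were tested on simulated data. Intervals at the 95% level are exact (conditional binomial where mock reads were counted, Poisson on dex reads where the floor applied) and cover counting error only, since reads carry no molecular identifiers.

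The matrix was learned in 20 rounds from sites within 50 bp of summits that passed the 90th percentile of left windows, and was made symmetric. Genes and sequence came from RefSeq TAIR10.1, the same assembly, with positions counted from 1. It is the Columbia sequence, whereas the tissue is Landsberg erecta, so a site that differs between them is read with Columbia bases. Named genes are those whose body or 3 kb upstream holds a member, the nearest coding gene starts on each side, and the 3 other regions with most summits (ties by highest fold), each named by the gene nearest its strongest summit. The regions tied with the last of these, the other genes with 4 summits, the genes holding a named site, AP1 as a reference and the genes at the highest folds were named after their values were seen. The regions with 5 summits were also named after their values were seen. Members, motifs and rules were chosen with earlier results of these data known. Cell type markers could not be read, since no expression values were used. Python 3.11.15, NumPy 2.4.6 and SciPy 1.17.1 were used. Alternatives covered the q-value limit, merging of near summits, upstream distance, interval overlap, background, motif window, mismatches, the matrix and the density window.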

Additional observations from a re-analysis of the deposited data

How the results depend on the processing

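Of 24 alternatives, 16 left the value within its limits and 8 moved it. Changes counted as within limits include 6 to 5 summits on merging, 4 to 3 at AT2G26520 and 19.4 to 24.8 for the S6 ratio. A −log10 q-value of at least 20 kept 6 summits and one of at least 50 left 3; merging summits within 500 bp left 5. AT2G26520 had 3 summits with 1 kb upstream in place of 3 kb and 4 under its other settings, and AR781 had 2 under every setting run. The ratio of S6 was 24.8 with the genome-wide floor as background, and its deposited fold was 18.6. Of the 6 summits, 1 had an exact match within 50 bp in place of 2 within 150 bp, and 6 had a match of up to 1 mismatch. The matrix percentile of S6 fell from 94.1 to 89.2 when the matrix was not made symmetric and to 78.8 when it was built from exact matches alone. By number of summits the region ranked 1 in windows of 10 kb, a rank shared by 2 regions. In windows of 50 kb the region ranked 7, a rank shared by 3 regions. With the stricter q-value limit of 20 in windows of 25 kb, the region ranked 1, shared by 2 regions. The cause of these moves was not tested.

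No paired analysis was possible because the libraries were pooled before peaks were called and the list has no sample columns; for the same reason no replicate was left out. The mock reads at S2, S3 and S4 are known only as at most 17, and those at S1 and S5 only as not above their background. This limits the order of the summits by ratio.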

Other observations

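The 5 nuclear summits with the highest fold differed in the best matrix score near them. They were picked after their values were seen, and each is named by its nearest gene. The summit at AR781 scored above 94.1% of nuclear summits and that at WRKY48, with a fold of 18.5, above 93.7%. The summits at AT1G68360 (fold 18.3) and AT5G12010 (fold 16.0) scored near the middle of the list, above 50.7% and 54.4%. The summit at GA2OX4, which encodes a gibberellin-inactivating oxidase, had a fold of 15.5 and scored above 30.3%.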
